A study of Homo sapiens with 8 samples.

Results

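TAZ binding sites that were called after 48 h of induction and at no other time were described from ChIP-seq peak lists of MCF10A cells. A site was taken when its interval in the 48 h list shared not even 1 bp with an interval of the list without doxycycline (Dox), of the 24 h list or of the 72 h list. Of the 11767 peaks called at 48 h, 509 (4.33%) met this rule. They are 509 of the 55334 peaks in the 4 lists together, and 508 of them lie on chromosomes 1 to 22, X and Y, for which location and sequence were read. The sites were thus chosen by their peak calls, which rest on the p-values of the peaks, so the strength of these sites and their absence from the other lists are descriptions of how they were chosen and carry no test.

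MCF10A is a non-transformed human mammary epithelial cell line. In the cells used here all groups carried the same transduced, Dox-inducible TAZ-4SA, a constitutively active form of TAZ, on top of the cells' own TAZ. The groups were cells without Dox and cells given 0.05 µg/ml Dox for 24, 48 or 72 h, and each of these 4 conditions had 1 library with an antibody to TAZ and 1 with IgG. The antibody was not limited to the induced protein as far as the labels say, so the cells' own and the induced TAZ cannot be told apart. No condition had a second TAZ library, so a site called at 48 h alone has no replicate, and peaks of 1 list share their library and are not replicates of a condition. Peak lists do not measure expression, so the cell type was not checked against marker genes. The questions asked here were where these sites lie, what sequence they carry and how they differ from sites that were called at 48 h and again at 72 h.

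TAZ is a transcriptional co-activator and an effector of the Hippo pathway, whose kinases hold it in the cytoplasm when they are active. TAZ does not bind DNA on its own. It is brought to chromatin mainly by the TEAD transcription factors, which recognise the word CATTCC preceded by A or G, and it often sits at enhancers that also hold AP-1, the dimers of FOS and JUN proteins. RUNX factors, which hold a PY motif, can bind the WW domain of TAZ.

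Sequences under some of the strongest sites are shown first, since they show what a 48 h-only site looks like at the level of bases. Each window is the summit, the base with the most ChIP fragments, and 100 bp to either side of it, from hg38 on the + strand. Capitals mark the TEAD word (ACATTCC or GCATTCC), the AP-1 word (TGACTCA or TGAGTCA) and the RUNX word (TGTGGTT), on either strand, so GGAATGT and GGAATGC are TEAD words and AACCACA is a RUNX word on the other strand. No window of the 508 sites held words of different kinds that shared bases. First come 5 sites with a TEAD or AP-1 word among the 25 of highest fold enrichment and then the 2 strongest with neither. The site near SNTG1, ranked above 3 of these and the only one of the 25 with both a TEAD and an AP-1 word, is not among those printed.
COL5A2 (chr2:189276481-189276681): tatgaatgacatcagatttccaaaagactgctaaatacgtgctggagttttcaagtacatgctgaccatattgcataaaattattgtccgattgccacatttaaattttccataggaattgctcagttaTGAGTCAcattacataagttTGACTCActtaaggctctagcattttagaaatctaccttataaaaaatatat
NAALADL2 (chr3:174951060-174951260): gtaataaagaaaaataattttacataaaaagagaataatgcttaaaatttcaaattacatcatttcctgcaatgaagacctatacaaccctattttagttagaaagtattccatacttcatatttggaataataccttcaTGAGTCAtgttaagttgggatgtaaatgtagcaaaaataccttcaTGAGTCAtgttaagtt
RXFP2 (chr13:31538779-31538979): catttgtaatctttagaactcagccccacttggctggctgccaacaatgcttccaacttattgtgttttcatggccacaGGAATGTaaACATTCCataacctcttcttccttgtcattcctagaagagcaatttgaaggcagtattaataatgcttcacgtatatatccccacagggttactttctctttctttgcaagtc
TMEM232 (chr5:110159283-110159483): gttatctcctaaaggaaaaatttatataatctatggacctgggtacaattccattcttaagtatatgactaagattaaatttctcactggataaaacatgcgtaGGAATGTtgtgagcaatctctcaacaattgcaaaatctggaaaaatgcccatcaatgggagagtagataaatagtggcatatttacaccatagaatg
BBX (chr3:107796903-107797103): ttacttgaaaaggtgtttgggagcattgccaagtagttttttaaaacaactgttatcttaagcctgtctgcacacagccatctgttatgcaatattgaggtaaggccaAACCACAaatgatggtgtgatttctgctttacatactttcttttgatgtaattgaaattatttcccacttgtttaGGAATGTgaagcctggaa
FAT4 (chr4:125704843-125705043): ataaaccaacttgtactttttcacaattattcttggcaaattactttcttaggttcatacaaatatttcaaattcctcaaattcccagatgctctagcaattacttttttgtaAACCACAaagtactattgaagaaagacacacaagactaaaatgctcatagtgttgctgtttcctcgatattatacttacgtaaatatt
LRRC7 (chr1:69492402-69492602): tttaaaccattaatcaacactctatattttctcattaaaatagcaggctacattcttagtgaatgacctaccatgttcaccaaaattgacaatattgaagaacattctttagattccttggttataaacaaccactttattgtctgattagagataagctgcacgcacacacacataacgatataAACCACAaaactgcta

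The window 51.3 kb upstream of COL5A2, a chain of type V collagen, held 2 AP-1 words centred 32 and 52 bp to the right of the summit. The window in an intron of NAALADL2 also held 2 AP-1 words, and there each word was part of a run of 26 bases, aataccttcaTGAGTCAtgttaagtt, that occurred again 45 bp further on. In the RXFP2 window 2 TEAD words on opposite strands were centred 18 and 9 bp to the left of the summit, and in the TMEM232 window 1 TEAD word was centred 7 bp to the right of it. The BBX window carried a RUNX word 11 bp and a TEAD word 86 bp to the right of the summit. Neither the FAT4 nor the LRRC7 window held a TEAD or AP-1 word, and each held a RUNX word, centred 16 and 88 bp from the summit. A match of a word is a description of the letters and not a measured binding site of the factor.

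A second set of windows is shown for genes of 16 pathway lists, chosen because a TEAD or AP-1 word lay at a 48 h-only summit whose nearest protein-coding gene was a list gene within 100 kb.
EGFR (chr7:54920673-54920873): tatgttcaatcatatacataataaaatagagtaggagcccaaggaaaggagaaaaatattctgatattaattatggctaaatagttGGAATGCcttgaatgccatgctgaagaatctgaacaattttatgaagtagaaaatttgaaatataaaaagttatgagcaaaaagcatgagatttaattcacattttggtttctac
FZD2 (chr17:44587398-44587598): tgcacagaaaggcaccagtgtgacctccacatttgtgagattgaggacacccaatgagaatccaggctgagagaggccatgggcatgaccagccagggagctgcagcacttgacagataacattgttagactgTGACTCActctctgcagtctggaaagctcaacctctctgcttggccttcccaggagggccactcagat
TGFB2 (chr1:218476501-218476701): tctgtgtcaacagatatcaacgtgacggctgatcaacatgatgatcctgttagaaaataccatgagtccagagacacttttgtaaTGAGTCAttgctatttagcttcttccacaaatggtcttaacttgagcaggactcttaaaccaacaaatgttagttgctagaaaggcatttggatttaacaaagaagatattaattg

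The EGFR window, 98.2 kb from the start of the growth factor receptor gene, held a TEAD word centred 11 bp to the left of the summit. The other 2 windows held AP-1 words. Near FZD2, a Wnt receptor, the word was 36 bp right of the summit. Near TGFB2, a TGF-beta ligand, the word was 12 bp left of the summit.

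The 48 h-only sites were weak peaks of the 48 h list. MACS2, the peak caller the authors used, gives each peak a fold enrichment, which is the fragment pileup at the summit over the local background with 1 added to both. The fold enrichment of the 509 sites had a median of 4.78, with quartiles of 4.05 and 5.93 and a range of 2.13 to 14.1. The 8654 sites that were called at 48 and 72 h and not earlier had a median of 6.16, and the 2604 sites that were also called without Dox or at 24 h had a median of 10.9. In fragments, the median summit of the 48 h-only sites held 22 (range 12 to 62), against 33 at the sites called at 48 and 72 h. The median −log10 p was 10.5 for the 48 h-only sites and 17.9 for the sites called at 48 and 72 h, and the median width was 466 bp and 578 bp. A pileup of this size is a small count. The strongest site, near COL5A2, had 53 fragments with an exact 95% Poisson interval of 39.7 to 69.3, and such intervals cover counting error only.

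The share of 48 h peaks that were called only at 48 h was largest among the weakest peaks. When the 48 h list was cut into 10 equal groups by −log10 p, the share was 16% (95% Clopper-Pearson interval 13.9 to 18.2%) in the weakest group, 4.26% (3.19 to 5.57%) in the fourth, 0.170% (0.0206 to 0.614%) in the ninth and 0 of 1174 in the strongest, which allows a share of up to 0.314%. In all, 438 of the 508 sites (86.2%) lay in the 4 weakest groups. Absence from another list means only that no peak was called there. At places with no more than the genome-wide background, the weakest peak of the 72 h list had 9 fragments and a fold enrichment of 3.33, and 476 of the 509 sites (93.5%) were at or above that fold at 48 h. The same value was 4.14 in the 24 h list, which 371 of the 509 sites (72.9%) reached, and 4.01 in the list without Dox, which 386 (75.8%) reached. Of the other 48 h peaks, 97.5% reached the 72 h value, 89.7% the 24 h value and 91.2% the value without Dox. The call at 48 h already set a lower bound on the fold, so nothing about the other times is read from these shares. At or above 7.17, the median fold enrichment of the whole 72 h list, were 50 of the 509 sites. The signal at these sites in the other libraries was not measured here, because the lists hold called peaks alone.

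The 48 h-only sites were AT-rich. The median GC content of their summit windows was 35.8% (quartiles 32.8 and 40.8%), against 43.3% for the sites called at 48 and 72 h, 45.0% for the sites also called earlier and 51.7% for the peaks called only at 72 h. The median over 58737 windows of the same length placed every 50 kb along the genome was 39.8%. Of the 508 windows, 71.7% were under 40% GC, against 34.1% of the windows called at 48 and 72 h and 51% of the genome windows. A CpG, the dinucleotide that carries most DNA methylation, was missing from 35.4% of the 48 h-only windows and from 21.3% of the windows called at 48 and 72 h. The lowest GC content among the 48 h-only windows was 24.4%, at the site in an intron near UBE2E3 and again at a site near LIN28B, and the highest was 64.2%, at the COMMD6 start site.

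The dependence on base composition was steep. With the 48 h list cut into 10 equal groups by the GC content within 500 bp of the summit, 248 of 1192 peaks (20.8%, interval 18.5 to 23.2%) in the group lowest in GC, at 34.9% GC or less, were called only at 48 h. The share was 6.59% (5.26 to 8.15%) in the next group, 2.45% (1.66 to 3.48%) in the fifth and 0.341% (0.0929 to 0.870%) in the highest. That lowest group alone held 48.8% of the 48 h-only sites, and the 4 lowest groups held 83.1%. Strength and GC content both went with the call when the list was cut into 3 equal parts by each. Among peaks in the lowest parts of both, 303 of 1337 (22.7%) were called only at 48 h. Among peaks equally low in −log10 p and in the highest part for GC, 21 of 1337 (1.57%) were, although the median −log10 p was 11.3 in the AT-rich and 10.6 in the GC-rich cell. Among the strongest peaks 8 of 1275 (0.627%) in the lowest part for GC were called only at 48 h, and 0 of 1331 and 0 of 1298 in the middle and highest parts, which allow up to 0.277% and 0.284%.

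**Figure D1:**
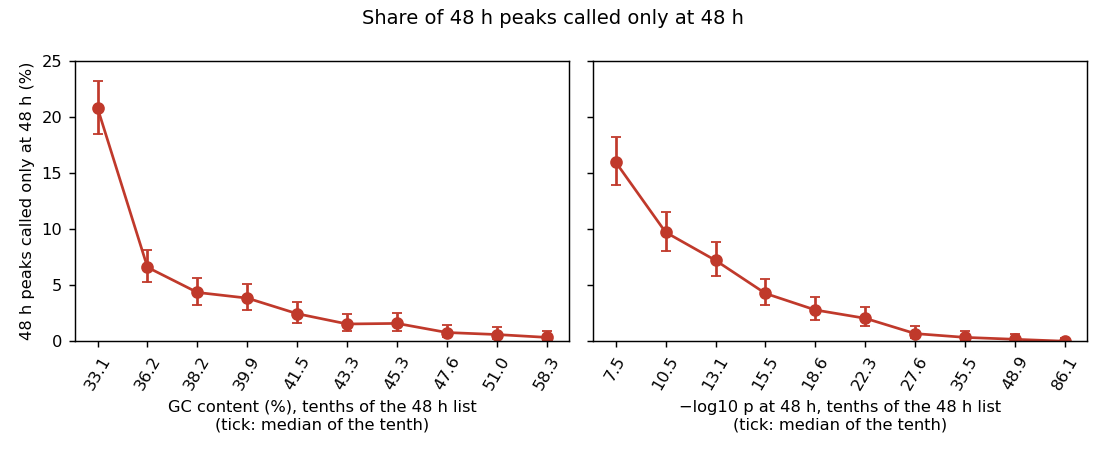
Share of the 48 h peaks that were called only at 48 h (percent, y axis) in 10 equal groups of the 48 h list by GC content within 500 bp of the summit (left, percent) and by −log10 p (right), with the median of each group on the x axis. Bars are exact 95% Clopper-Pearson intervals, and the share is 20.8% in the group lowest in GC and 0.341% in the highest, and 16% in the weakest group and 0 in the strongest.

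Base composition also went with how strongly shared sites were enriched at 72 h. At the 11203 sites of the 48 h list with a peak in the 72 h list, the median ratio of the fold enrichment at 72 h to that at 48 h was 1.90, and it was 1.14 (quartiles 0.864 and 1.52, 934 sites) in the group lowest in GC and 2.91 (2.17 and 3.86, 1169 sites) in the group highest in GC. The ratio was under 1 at 38.2% of the shared sites in the lowest group, against 0.257% of those in the highest. Between 48 and 24 h the same ratio changed less with GC content, with a median of 1.55 (206 sites) in the lowest group and 1.32 (271 sites) in the highest. These ratios are a description over sites of 1 library per time, and sites near the calling threshold enter only when they were called in both lists. By list, from no Dox to 72 h, the median GC content of the summit windows was 61.7, 44.3, 43.3 and 49.8%, and the background coverage was 1.49, 1.42, 2.84 and 2.01 fragments. The part of these differences between libraries in the 48 h-only calls was not tested, and with 1 library a time the library and the time cannot be told apart.

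**Figure D2:**
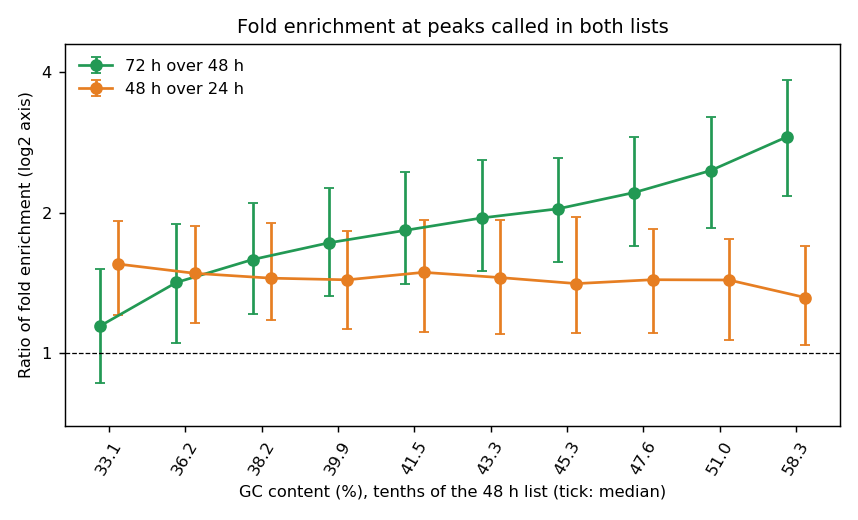
Ratio of fold enrichment at peaks called in both of 2 lists (y axis, log2 spacing) by GC content (10 equal groups of the 48 h list, x axis, median percent of each group), for 72 h over 48 h and 48 h over 24 h. Points are medians and bars the quartiles over sites, and the 72 h over 48 h median is 1.14 in the group lowest in GC and 2.91 in the highest, while the 48 h over 24 h median is 1.55 and 1.32.

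The sites lay mostly outside promoters. The transcription start sites (TSS) of all annotated transcripts were used, so a TSS can lie inside a gene. Distances to a gene are to the nearest of its TSSs. A summit within 3 kb of any TSS was called a promoter summit. The others were placed in exons or introns of genes of any type, not only of the nearest gene, or in intergenic sequence. By this order 83 of the 508 sites (16.3%, interval 13.2 to 19.8%) were in promoters, 15 (2.95%) in exons, 250 (49.2%) in introns and 160 (31.5%) in intergenic sequence. The promoter share was 25.4% (24.4 to 26.3%) for the sites called at 48 and 72 h, 30.1% (28.3 to 31.9%) for those also called earlier and 48.5% (47.9 to 49.1%) for the peaks called only at 72 h. Regular genome positions had a promoter share of 17.3%, inside the interval of the 48 h-only sites. Within 1 kb of any TSS lay 5.91% of the 48 h-only sites, 12.6% of the sites called at 48 and 72 h and 7.02% of genome positions.

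**Figure D3:**
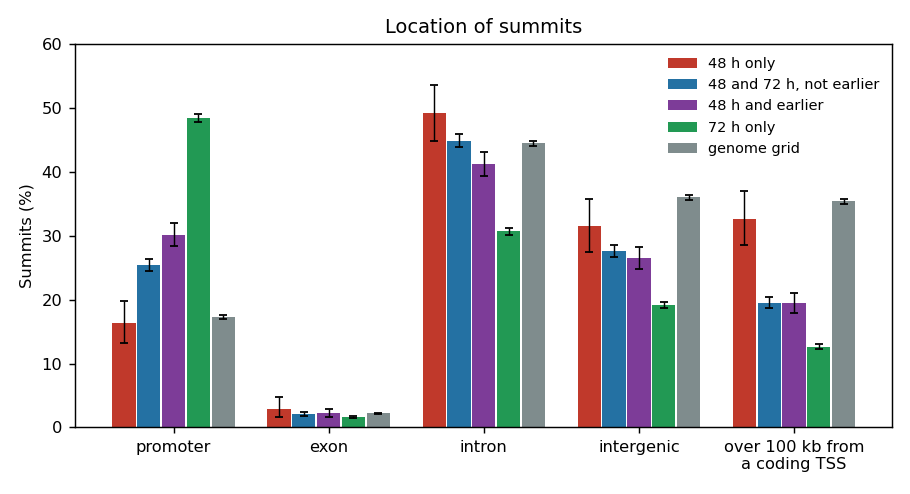
Percent of summits (y axis) in promoters, exons, introns and intergenic sequence, and over 100 kb from a protein-coding TSS, for the 48 h-only sites, the sites called at 48 and 72 h, the sites called at 48 h and earlier, the peaks called only at 72 h, and regular genome positions. Bars carry exact 95% Clopper-Pearson intervals, and 16.3% of the 48 h-only sites and 17.3% of the genome positions are in promoters.

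Many of the sites lay far from any protein-coding gene start, about as often as regular genome positions do. The median distance from a 48 h-only summit to the nearest protein-coding TSS was 37.0 kb (quartiles 9.37 and 171 kb), against 22.4 kb for the sites called at 48 and 72 h and 43.3 kb for genome positions. Of the 48 h-only sites 32.7% (28.6 to 36.9%) were over 100 kb away and 9.25% (6.88 to 12.1%) over 500 kb. The shares were 19.5% (18.7 to 20.4%) and 3.16% (2.80 to 3.55%) for the sites called at 48 and 72 h. Of genome positions 35.4% and 11.7% were this far away, inside the intervals of the 48 h-only sites. The median number of protein-coding genes in the surrounding 1 Mb was 4 for the 48 h-only sites and for genome positions, and 6 for the sites called at 48 and 72 h. GC content moved with location, and GC content was compared within promoters and within pooled introns and intergenic sequence. In promoters the median GC content was 37.3% for the 48 h-only sites and 46.3% for the sites called at 48 and 72 h, and in introns and intergenic sequence it was 35.8% and 42.3%. Within the lowest of the 10 GC groups the promoter share was 11.7% (7.97 to 16.4%) for the 48 h-only sites and 16% (13.4 to 18.8%) for the sites called at 48 and 72 h, intervals that overlap. In the 6 GC groups above the fourth the 2 shares were 30.2% (20.8 to 41.1%, n = 86) and 30.2% (29.0 to 31.5%). Among peaks of like strength the promoter share of the 48 h-only sites was the lower in each strength group compared. In the weakest of the 10 groups by −log10 p the promoter share was 20.2% (14.7 to 26.7%, n = 188) for the 48 h-only sites and 35.9% (32.8 to 39.1%, n = 923) for the sites called at 48 and 72 h, and in the next 3 groups it was 14.4% (10.3 to 19.4%, n = 250) and 25.9% (24.4 to 27.5%, n = 3130). In the 6 groups above the fourth the share was 12.9% (6.05 to 23%, n = 70) and 22.9% (21.7 to 24.1%, n = 4591). These last intervals overlap, at n = 70, while those of the weaker groups do not. Whether the difference changes with strength was not tested.

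By chromosome, the share of 48 h peaks called only at 48 h ran from 1 of 242 on chromosome 19 (0.413%, interval 0.0105 to 2.28%) to 25 of 312 on chromosome 13 (8.01%, 5.25 to 11.6%), leaving out chromosome Y, where the 48 h list had 2 peaks. Chromosome 4 had 6.22% (4.50 to 8.35%), chromosome 2 had 5.75% (4.39 to 7.39%) and chromosome 17 had 1.81% (0.730 to 3.69%). Chromosomes 4 and 13 are poor in GC, with 48 h peaks at a median of 39.4 and 39.8%, and chromosome 19 is rich in it, at 51.1%. The order by GC was not strict, since chromosome 22, with a median of 49.8%, had 8 of 174 (4.6%, 2.01 to 8.86%).

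The sites carried the words of TEAD and AP-1 well above the surrounding sequence. A TEAD word was present in 154 of the 508 summit windows (30.3%, interval 26.3 to 34.5%), against 6.10% (4.71 to 7.76%) of the windows of the same length 1000 bp to either side and 5.63% of the genome windows. An AP-1 word was present in 100 windows (19.7%, 16.3 to 23.4%), against 3.54% (2.49 to 4.87%) of the flanking windows and 3.08% of the genome windows. A RUNX word was present in 63 windows (12.4%, 9.66 to 15.6%), against 4.53% (3.33 to 5.99%) and 3.70%. No rule on sequence was used to choose the sites, and the intervals of summit and flanking windows do not overlap for any of these 3 words. Windows with both a TEAD and an AP-1 word numbered 16 (3.15%), those with TEAD alone 138, those with AP-1 alone 84, and 270 (53.1%) had neither. Of the 270, 35 held a RUNX word, which left 235 sites with none of the 3.

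The share of TEAD words lay below that of the sites called at 48 and 72 h, with intervals apart, while the intervals of the AP-1 and RUNX shares overlapped. The TEAD word was found at 39.6% (38.6 to 40.7%) of the sites called at 48 and 72 h, at 51.5% (49.5 to 53.4%) of the sites also called earlier and at 22.4% (21.9 to 22.9%) of the peaks called only at 72 h. The AP-1 word was found at 20.3% (19.4 to 21.1%), 18.7% (17.3 to 20.3%) and 15% (14.6 to 15.4%) of the same groups, and the RUNX word at 10.9% (10.3 to 11.6%), 11.2% (10.0 to 12.5%) and 5.60% (5.32 to 5.89%). Both words together were at 3.15% (1.81 to 5.06%) of the 48 h-only sites and 6.4% (5.89 to 6.93%) of the sites called at 48 and 72 h. The TEAD word moved with strength. In the weakest of the 10 groups by −log10 p it was at 25% (19.0 to 31.8%, n = 188) of the 48 h-only sites and at 25.2% (22.5 to 28.2%, n = 923) of the sites called at 48 and 72 h, and in the 6 groups above the fourth at 38.6% (27.2 to 51%, n = 70) and 45.2% (43.8 to 46.7%, n = 4591). In the group lowest in GC it was at 29.8% (24.2 to 36.0%) and 33.6% (30.2 to 37.1%). In the next 3 groups by GC it was at 28.2% (21.6 to 35.5%, n = 174) and 37.6% (35.8 to 39.5%, n = 2678), with intervals apart. The intervals overlap in the other groups of like strength or like GC that were compared. The TEAD share of the 48 h-only sites was the lower in each of these groups too, and no test of a difference was run.

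**Figure D4:**
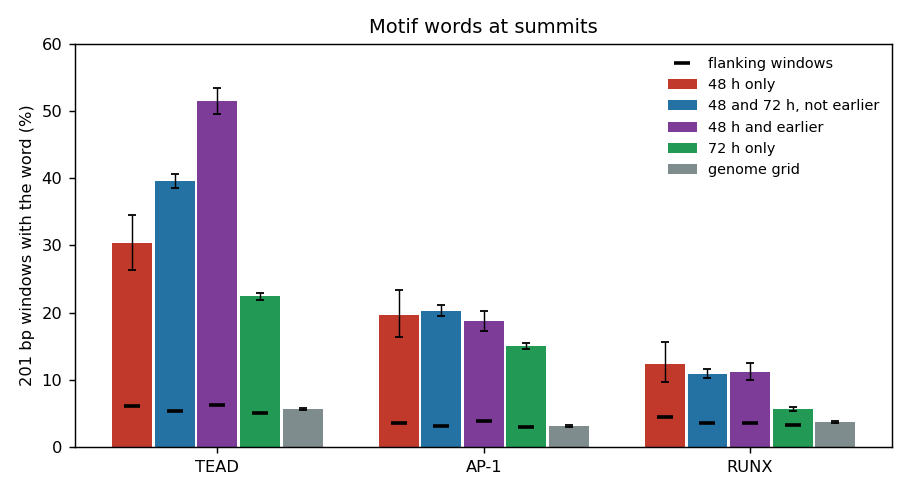
Percent of summit windows (100 bp to either side of the summit) with a TEAD, AP-1 or RUNX word (y axis) for the 48 h-only sites, 3 other groups of peaks and regular genome windows. Bars carry exact 95% Clopper-Pearson intervals and black marks give windows 1000 bp to either side, and the 48 h-only sites have the TEAD word in 30.3%, the AP-1 word in 19.7% and the RUNX word in 12.4% of windows.

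The words sat at the summits. Of the 314 TEAD words within 300 bp of a 48 h-only summit, 129 were centred within 50 bp of it, and of the 175 AP-1 words 78 were. Among all words of 6 bases, counted with their reverse complements, CATTCC had the largest excess at the 48 h-only summits, with 37.6% of summit windows against 11.6% of flanking windows. It was followed by ACATTC (36.0% and 15.7%), AGGAAT (37.4% and 17.8%) and GAATGC (26.2% and 7.58%), which overlap the TEAD word or differ from it by an end base. GAGTCA, the end of an AP-1 word, was at 25.2% of summit and 8.27% of flanking windows, and ACCACA, inside the RUNX word, at 24.6% and 13.6%.

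**Figure D5:**
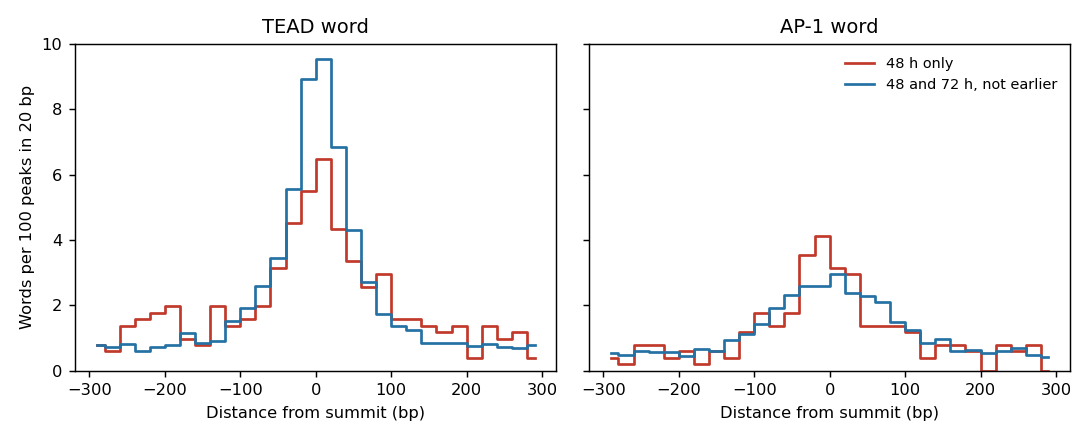
Number of TEAD words (left) and AP-1 words (right) per 100 peaks in bins of 20 bp (y axis) against distance from the summit (x axis, bp), for the 48 h-only sites and the sites called at 48 and 72 h. Both words peak at the summit in both groups, and 129 of the 314 TEAD words within 300 bp of a 48 h-only summit are within 50 bp of it.

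Words of GC-rich promoters were near their background at the 48 h-only sites. The SP/KLF word GGGCGGG was in 2 of 508 windows (0.394%, interval 0.0477 to 1.41%), against 0.886% of flanking and 1.02% of genome windows, 2.67% of the windows called at 48 and 72 h and 16.6% of those called only at 72 h. The ETS word CCGGAAG was in 1 window (0.197%, 0.00498 to 1.09%), against 0.689%, 0.444%, 0.914% and 5.38% in the same order. CREB (TGACGTCA) was in none of the 508, which allows a share of up to 0.724%, against 0.197%, 0.0528%, 0.289% and 0.889%. The GRE word, of the glucocorticoid receptor type, was in 7 windows (1.38%, 0.556 to 2.82%), against 0.295% of flanking windows and 1.55% of the windows called at 48 and 72 h, and the STAT word TTCCNGGAA in 8 (1.57%, 0.682 to 3.08%), against 0.492% of flanking windows and 2.19% of the windows called at 48 and 72 h. SNAI/ZEB (CAGGTG) was at 10.4% of summits and 10.9% of their flanks.

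Most sites were not next to a 72 h peak. The gap from a 48 h-only interval to the nearest 72 h peak had a median of 16.2 kb (quartiles 3.94 and 49.7 kb). Whether this is shorter or longer than the gap from regular genome positions was not tested. For the 48 h-only sites the counts by gap were as follows. The gap was within 500 bp for 18 sites, within 1 kb for 44, within 5 kb for 148 (29.1%) and within 50 kb for 381 (74.9%), and 225 sites (44.2%) were over 20 kb away. The nearest 24 h peak was at a median of 349 kb and the nearest peak without Dox at 604 kb, from lists of 2469 and 2431 peaks against 38667 at 72 h. The nearest other 48 h peak was at a median of 51.2 kb, against 31.7 kb for the sites called at 48 and 72 h. At the edge of the rule, the closest sites inside it were 35 bp from a 72 h peak near PHF20 (fold enrichment 4.38 at 48 h for the site and 22.4 at 72 h for the peak beside it) and 47 bp near HGF (6.64 and 5.99). The closest sites outside it overlapped a 72 h peak by 28 bp near MTFP1 (3.95 at 48 h and 2.99 at 72 h) and by 43 bp near NFIA (5.52 and 3.56).

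The 25 sites of highest fold enrichment stood between 14.1 and 8.07. Their windows had a median GC content of 31.8% and 22 of 25 were under 40%, 12 were intergenic, 10 intronic, 2 in promoters and 1 in an exon. A TEAD word was in 8, an AP-1 word in 4 and neither in 14, and 5 of those 14 held a RUNX word. The first site, chr2:189276213-189276945 near COL5A2, had a fold enrichment of 14.1 and lay 1.80 kb from a 72 h peak. The second, chr3:174950704-174951746 in an intron of NAALADL2, had 13.0 with 49 fragments (36.3 to 64.8), 0.749 kb from a 72 h peak. Both of these sites with 2 AP-1 words were next to sites called at 72 h.

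Next in rank, the site chr4:125704784-125705427 had 12.5 with 47 fragments (34.5 to 62.5) and lay in an intron 259 kb from the nearest protein-coding TSS, that of FAT4, an atypical cadherin whose Drosophila relative Fat acts upstream of the Hippo kinases. The nearest 72 h peak there was 23.1 kb away. The fourth, chr1:69492174-69492838, had 10.9 with 41 fragments (29.4 to 55.6), 75.4 kb upstream of LRRC7, a scaffold protein of synapses, and no 72 h peak was called within 598 kb of it. The fifth, chr2:180890499-180891268, had 10.7, was in an intron 76.4 kb from UBE2E3, a ubiquitin-conjugating enzyme, and lay 60.8 kb from a 72 h peak. In contrast to the first 2, these 3 sites had no called neighbour at 72 h within 20 kb, and their windows had no TEAD or AP-1 word. Across the 25 sites this was not a rule. The RXFP2 site, with 2 TEAD words, was 85.7 kb from a 72 h peak, and the THSD7B site, with neither word, was 0.667 kb from one.

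Some of the 25 sites were very far from their nearest protein-coding gene. ALCAM, an adhesion molecule of the immunoglobulin family, was 450 kb from a site of 9.25. CDH6, a cadherin, was 1094 kb from a site of 8.85, and PCDH7, a protocadherin, was 1563 kb from one of 8.54. Distances of this size give a nearest gene and do not say which gene a site acts on. The RXFP2 site (9.10, receptor of a relaxin family hormone) was 200647 bp upstream of its gene and 85.7 kb from a 72 h peak, and the METTL15 site (9.09, a mitochondrial RNA methyltransferase) was 739 kb from its gene.

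Other sites of the 25 were in promoters, introns or an exon. BBX, which codes for a protein with an HMG box, had a site of 8.76 at chr3:107796767-107797200. It lay 1.59 kb upstream of the nearest BBX TSS and 0.560 kb from a 72 h peak. PNLIPRP3, a relative of pancreatic lipase, had a site of 8.34 with 2 RUNX words 2.63 kb downstream of its nearest TSS. There the nearest 72 h peak was 176 kb away. ADGRL3, an adhesion receptor of the latrophilin type, had an intronic site of 8.36 with 2 AP-1 words. It lay 3.44 kb from the nearest ADGRL3 TSS and 139 kb from a 72 h peak. The sites of ARHGAP18 (8.81), SEMA3D (8.41), a secreted semaphorin, and DPF3 (8.20), a subunit of the BAF chromatin remodelling complex, lay in introns. They were 36.6, 50.8 and 12.2 kb from the nearest TSS of these genes. The DPF3 window had the highest GC content of the 25, at 55.7%. The 1 exonic site, of 8.59, was in ONECUT2, a homeobox transcription factor, with a TEAD word and a RUNX word in its window. The remaining sites, near SNTG1, TMEM232, SLAIN2, CELF2, TRIQK, CNRIP1, THSD7B and PABPC4L, ranged from 9.89 to 8.07. Of the 25 sites 7 had a 72 h peak within 5 kb and 15 had none within 20 kb.

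Promoter sites in the narrow sense were looked at next. Within 1 kb of a protein-coding TSS lay 18 of the 48 h-only summits, with fold enrichments of 3.27 to 5.26. The median of all 509 sites was 4.78. Within 3 kb of a protein-coding TSS lay 10.0% of the 48 h-only sites and 10.2% of genome positions. The genome share within 1 kb of a protein-coding TSS was not computed, so nothing is read from the count of 18. Any annotated transcript start was counted, also one inside a gene. The strongest was at USP25 (5.26, a deubiquitinating enzyme), 476 bp upstream of 1 of the TSSs of this gene. CCNH (4.98, cyclin H, a partner of CDK7, 219 bp downstream) and PTS (4.91, an enzyme of tetrahydrobiopterin synthesis, 21 bp upstream) followed. WEE1, the kinase that holds CDK1 inactive, had 4.70 with a TEAD word, 914 bp downstream of its nearest TSS and 4.41 kb from a 72 h peak. ERN1 and ERO1A, of the unfolded protein response and of oxidative folding in the endoplasmic reticulum, had 3.98 and 3.37. Others were XPR1, ASPN, ZNF705A, H4C2, C1GALT1, GOLGA4, SESTD1, ALPK2, TIA1 and COMMD6. Of the 18, 4 held a TEAD word and 2 an AP-1 word, 10 had a 72 h peak within 5 kb, and their median GC content was 39.3%.

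Genes of 16 lists of pathways linked to TAZ or to mammary cells were then looked up. A list gene was counted when it was the protein-coding gene nearest to a 48 h-only summit within 100 kb. This held for 13 of the 330 list genes (3.94%), and over all 20007 protein-coding genes it held for 328 (1.64%). For the whole 48 h list the same counts were 196 of 330 and 5008 of 20007. Within 3 kb of a TSS, 2 of the 330 list genes (0.606%) had a 48 h-only summit, against 56 of 20007 (0.28%). The lists were chosen with these data known, and genes with more sites have more chances to be counted, so nothing is read from the difference.

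The Wnt and Notch list had 4 of 28 genes. DKK1, a secreted Wnt inhibitor, had 2 sites, of 6.08 at 36.9 kb and 4.35 at 66.2 kb from its nearest TSS. FZD2, a Wnt receptor, had a site of 4.51 at 30014 bp and LRP5, a Wnt co-receptor, one of 4.13 at 15030 bp. WNT5A, a Wnt ligand, had one of 4.42 at chr3:55467192-55467592, 2.80 kb from its nearest TSS. The TGF-beta and SMAD list had 2 of 22 genes. TGFB2 had a site of 4.07 with 34 fragments, 42.5 kb downstream of its nearest TSS. SMAD2, a transducer of TGF-beta signals, had a site of 4.16 at chr18:47898148-47898995, 1.99 kb from its nearest TSS. The fold enrichment of all 7 of these sites but the first at DKK1 was under 4.78, the median of the 48 h-only sites.

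Genes close to TAZ itself had single sites. The YAP/TAZ target signature had 2 of 22 genes, TGFB2 and PTPN14, a phosphatase that binds YAP. The PTPN14 site, of 4.89 with 38 fragments, was intronic and 4.22 kb upstream of the nearest TSS of the gene. TEAD1, a DNA-binding partner of TAZ, had a site of 4.16 that lay 20.4 kb upstream of its nearest TSS. TEAD1 was 1 of 8 genes in the list of TEAD and VGLL factors. EGFR, the receptor for amphiregulin among others, had a site of 6.88 with 28 fragments at chr7:54920653-54921161, 1 of 12 genes in its list. At these genes a 48 h-only site was 1 among several sites. EGFR had 7 peaks at 48 h and 19 at 72 h within 100 kb for which it was nearest, with a strongest fold enrichment of 42.4 and 74.5, PTPN14 had 11 and 20 (15.4 and 63.2), TGFB2 had 10 and 14 (19.9 and 43.3) and TEAD1 had 6 and 11 (26.4 and 88.6).

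In the other lists, COL17A1, a collagen of the hemidesmosome, had a site of 5.20 at 8.07 kb, 1 of 18 genes of integrins, laminins and their partners, and CDH2, the N-cadherin of mesenchymal cells, had an intronic site of 4.84 at 5.70 kb, 1 of 20. TNFAIP3, an inhibitor of NF-kB signalling, had a site of 4.05 at 46.0 kb, 1 of 31. CDK6, a cyclin-dependent kinase of G1, had an intronic one of 3.57, 16.1 kb upstream of its nearest TSS, 1 of 28. A 72 h peak lay 0.781 kb from the CDK6 site. Of the 13 genes, COL17A1 alone had a 48 h-only site above its strongest shared 48 h peak, with 5.20 against 4.09. No gene of the AP-1 family (0 of 11), epithelial junctions (0 of 26), basal and luminal mammary markers (0 of 13), RUNX, STAT and ETS factors (0 of 20) or liver, neuron, blood and muscle markers (0 of 20) was nearest to a 48 h-only site within 100 kb. The share over all protein-coding genes was 1.64%, so nothing is read from a 0, or from the count of any single list, in lists this short.

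Genes nearest to a 48 h-only site often had other sites. Of the 508 sites, 342 lay within 100 kb of a protein-coding TSS. For 221 of these (64.6%) the nearest gene was also the nearest gene of a 48 h peak that was shared with another list, and for 315 (92.1%) it was also the nearest gene of a 72 h peak. Over all 20007 protein-coding genes, 5008 were nearest to a 48 h peak and 12777 to a 72 h peak within 100 kb, so such sharing is frequent for any gene and nothing particular to the 48 h-only sites is read from it. The 342 sites fell to 328 genes, of which 13 had 2 or more and none had more than 3.

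The number of sites rests on the rule and on the calls. It was 3575 when 2 intervals had to cover 50% of each other to count as shared, and 221 when a fold enrichment of at least 5 was asked for. It was 9163 without the 72 h list in the rule, 541 without the 24 h list and 510 without the list from cells without Dox, so nearly all of the selection was done by the 72 h list. Without the group of the 48 h list lowest in GC it was 260, and the TEAD and AP-1 shares of those 260 were 30.8% and 18.5%.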

How the data were processed

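ChIP-seq was done by the authors in MCF10A cells with inducible TAZ-4SA, in 4 conditions with 1 TAZ and 1 IgG library each. Per the methods and the submitters' processing notes, trimmed reads were aligned to hg38 (BWA) and MACS2 called the peaks of each condition (false discovery rate 0.01). Tool versions, and the use of IgG as control, are not given in the sources used. The deposited lists hold, as the authors made them, the fold enrichment as a ratio, −log10 of the p-value and of the q-value, a score made from the q-value and the summit offset. No column of another series was present (0).

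Depth is not in the lists. Pileup and background were worked out from each peak's fold enrichment and p-value together, which returned 100% of the −log10 p values within 0.003. Coordinates are 1-based on hg38, and summits were annotated with GENCODE version 44. Shares have exact 95% Clopper-Pearson intervals, which cover counting error only, and medians have no test, since peaks of 1 library are not replicates. For a share of 0 the upper bound of that interval is given. Words for 15 motifs were looked for on either strand within 100 bp of the summit and in windows of the same length 1000 bp to each side, and those not shown had shares close to their flanks or were rare. For the ratio of fold enrichments, a 48 h peak was matched to the first peak it overlaps by position. The genome file has no repeat masking, so the share of words of 31 bases that occur more than once in the genome was used in place of a repeat-masked share. Named genes are those nearest to the 25 strongest sites, list genes within 100 kb of a site, genes with a site within 1 kb of a TSS, and genes at the edge of the rule. Of the 12 windows picked for printing, 1 lies in an untranslated region and is not printed, and another window and a few genes and lists are not reported here. The sites, words and lists were chosen with earlier results of these data known. Python 3.11.15, pandas 2.3.3, numpy 2.4.6, scipy 1.17.1, pysam 0.24.0, numba 0.67.0 and matplotlib 3.10.9 were used, and the solver and the word search were tested on simulated data. Alternatives to the overlap, the threshold, the promoter distance and the window are given in the closing section.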

Additional observations from a re-analysis of the deposited data

How the results depend on the processing

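Of 29 alternatives run, 14 were classed as the same and 15 as moved. The classes are coarse, since the first holds site counts of 359 and 389 against 509. The second holds a median GC content of 35.3% against 35.8%. The number of 48 h-only sites was 3575 when sharing asked for 50% of both intervals, 221 at a fold enrichment of at least 5, and, in alternatives chosen after seeing the data, 9163 without the 72 h list in the rule and 260 without the group lowest in GC. It lay between 359 and 541 in the other alternatives tried. The promoter share was 5.91% with a distance of 1 kb, 10.0% with protein-coding TSSs alone, 10.6% when a peak within 5 kb counted as shared and 20.8% without that group. The TEAD share was 21.1% within 50 bp of the summit, 38.0% within 200 bp and 41.9% in whole intervals, and the AP-1 share was 14.2%, 24.4% and 25.8%. The median GC content was 35.3% over whole intervals. No paired analysis was possible because each condition had 1 TAZ library, and no replicate could be left out for the same reason. Summit pileups with a median of 22 fragments limit what a missing call at another time can show, and no fragment counts at uncalled places were analysed here.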

Other observations

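A few 48 h-only sites lay where the local background was high or the sequence is repeated, and they are named here after their values were seen. A background of over 10 fragments was found at 7 sites. They were 3 neighbouring sites on chromosome 20 near DEFB115, a beta-defensin gene, with fold enrichments of 2.39, 2.35 and 2.27 over backgrounds of 24.1, 18.6 and 24.1 fragments, and single sites near ZNF33B (2.13), WSB1 (3.38) and EXD3 (3.13) and on an unplaced sequence (4.72, with 62 fragments, the highest pileup of the 509). In 26 of the 508 windows (5.12%, interval 3.37 to 7.41%) over 50% of the words of 31 bases occur elsewhere in the genome, against 3.26% (2.90 to 3.66%) of the windows called at 48 and 72 h, and in 80.7% and 82.8% every word was unique.

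Pairs of 48 h-only sites within 10 kb of each other were otherwise found at 2 places. Near PDGFC, a platelet-derived growth factor, sites of 7.09 and 3.93 had summits 7306 bp apart, and near TRIQK sites of 3.90 and 8.33 had summits 1413 bp apart.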
